A study of Rattus norvegicus with 15 samples.

Results

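The DNAJ genes encode the J-domain co-chaperones of the 70 kDa heat shock proteins (HSP70). Their members were taken from the deposited transcript table by gene symbol: every transcript whose gene name starts with Dnaj was kept, with the unnamed transcripts of a locus that holds only that name. This gave 45 of the 37367 genes in the table, made of 64 annotated transcripts and 77 transcripts assembled without a name. FPKM (fragments per kilobase of transcript, scaled to the mapped fragments of the library) was summed over the transcripts of a gene in each library. A mean of at least 0.5 FPKM over the 15 libraries was reached by 39 members: all 4 of class A, 9 of 13 of class B and 26 of 28 of class C. The 6 members under this limit were Dnajb3, Dnajb7, Dnajb8, Dnajb13, Dnajc5b and Dnajc5g, which are known mainly from the testis. Dnajb8 and Dnajc5g were listed at 0 in every library, and the summed FPKM of the 6 was 0.126 to 0.626 per library.

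A J domain binds an HSP70 that carries ATP and makes it hydrolyse the ATP, which closes the HSP70 on its client protein. Class A proteins carry the J domain with a glycine-rich stretch and a zinc-finger-like domain, class B proteins carry it with the glycine-rich stretch, and class C proteins share only the J domain. Classes A and B hold general folding helpers of the cytosol and of the endoplasmic reticulum (ER), while class C holds proteins that bring an HSP70 to a single task, such as uncoating clathrin vesicles, importing proteins into mitochondria or handling histones. Some members are classic targets of heat shock factor 1, and others are induced when unfolded proteins gather in the ER.

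The study asked how the dose of x-rays and the time after exposure change the transcripts of primary brain microvascular endothelial cells (BMECs), cells grown from the small vessels of the cerebral cortex. The cells came from 6 littermate Sprague Dawley rats of both sexes, aged 2 to 3 weeks, and the sources used here do not tie a library to an animal. There were 5 groups of 3 libraries, described as biological replicates: unexposed control cells, and cells collected 12 h or 24 h after 5 Gy or 20 Gy from a linear accelerator, all from the same kind of culture in endothelial medium with fetal bovine serum. Per the labels, the unexposed cells had 12 h in culture, and no unexposed culture of 24 h was analysed here. Time after exposure and time in culture therefore cannot be told apart in the 24 h groups, and p-values measure the spread between libraries that may share animals.

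The promoters of 35 members were found in a RefSeq table of the GRCr8 build, which holds 250 bases before and 50 bases after each gene's start. They were searched on both strands for the heat shock element, read as 3 alternating GAA and TTC units each 2 bases apart, for its overlapping form of 2 units (GAANNTTC or TTCNNGAA), and for the ER stress response element, which is CCAAT, any 9 bases and CCACG. The 3-unit form was present in 267 of all 33469 promoters (0.798%), the 2-unit form in 15.9% and the ER stress response element in 22 (0.0657%). Among the members, Dnaja1 held the 3-unit form, 6 of 35 (17.1%) held the 2-unit form (Dnaja1, Dnajb1, Dnajb6, Dnajc5g, Dnajc18 and Dnajc27), and Dnajc3 held the ER stress response element. The following stretches are shown because Dnaja1 and Dnajb1 had the highest levels 24 h after exposure, and because Dnajc3 carried the rarest match. Capitals mark the 3-unit match in Dnaja1 (bases 1 to 30 after the start, chr5:60638404-60638433, + strand), a 2-unit match in Dnajb1 (the 120 bases before the start, chr19:41431142-41431261, - strand) and the ER stress response element in Dnajc3 (chr15:102432528-102432557, + strand).
Dnaja1: ggccgggcgGAACTTTCCAGAAcgctcggt
Dnajb1: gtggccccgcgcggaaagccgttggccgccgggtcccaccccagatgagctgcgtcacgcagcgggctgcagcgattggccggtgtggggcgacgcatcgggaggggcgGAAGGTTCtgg
Dnajc3: ccaaagCCAATCAGCGCCAACCACGaccca
The Dnajb1 match shown starts 11 bases before the start, and a second one (GAAGCTTC) starts at base 18 after it. The gene is on the + strand in Rnor_6.0 and on the - strand in GRCr8. A match is a description of these letters and not a measured binding site.

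The libraries held 5.44 to 7.49 gigabases of aligned sequence each, computed from the spacing of the low FPKM values. The labelled cell type was checked against marker genes, and most endothelial markers were at or near 0. Of 12 endothelial markers, 11 were in the table, 3 (Kdr, Flt1 and Slc2a1) had a mean of at least 0.5 FPKM, and Tie1 and Emcn were at 0 in every library. The summed level of this list was 15.9 to 31.0 FPKM per library, and most of it was Slc2a1, with 12.4 to 25.7 FPKM. Cdh5, which encodes VE-cadherin, averaged 0.19 FPKM in the control group. Fibroblast markers (Col1a1, Col1a2, Col3a1, Dcn, Lum, Pdgfra and Fn1) summed to 4163 to 4531 FPKM in the control libraries, 2334 to 3982 at 12 h after either dose, 1265 to 2178 at 24 h after 5 Gy and 903 to 1673 at 24 h after 20 Gy. Of these 7 markers, 5 fell at 24 h after 5 Gy and 6 after 20 Gy, while 20.8% and 23.3% of all genes tested fell. The part of these markers in the changes below was not tested. Of 3 pericyte and smooth muscle markers tested 2 fell at 24 h at both doses, with sums of 90.9 to 99.3 FPKM in the control and 39.4 to 64.9 in the 24 h libraries, while 3 astrocyte markers gave 1 higher and 1 lower call. Microglia and leukocyte markers summed to at most 0.301 FPKM. In such bulk samples, fewer cells of a type and less RNA per cell cannot be told apart.

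A single linear model over all 15 libraries compared the exposed groups with the controls. It was fitted with limma to log2(FPKM + 1) of the 17895 genes with a mean of at least 0.5 FPKM. A log2 change below is the difference between group means on this scale, which understates the change of genes with a low FPKM. A gene was called changed at a Benjamini-Hochberg adjusted p (two-sided) below 0.05 when the fold also reached 1.5, and in the interaction by the adjusted p alone.

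At 12 h, few DNAJ genes were called. After 5 Gy, Dnajc28 rose and Dnajb1 and Dnajc9 fell, which is 1 of 39 members higher and 2 lower, against 4.98% higher and 4.96% lower among all genes tested. After 20 Gy, Dnajc28 rose and Dnajc9 fell, against 4.90% higher and 3.64% lower among all genes. With the FPKM rescaled to the same sum in each library, 2 members (Dnajc28 and Dnajc6) were higher and none lower 12 h after 20 Gy, and with quantile normalization 1 was higher and none lower.

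At 24 h, the family changed in both directions. After 5 Gy, 11 of 39 members rose (28.2%) and 6 fell (15.4%), while 20.5% of all genes tested rose and 20.8% fell. After 20 Gy, 7 members rose (17.9%) and 7 fell (17.9%), while 17.0% of all genes rose and 23.3% fell. The shares after 20 Gy were close to those of all genes. The median log2 change of the members was 0.23 after 5 Gy and 0.06 after 20 Gy, compared with -0.05 and -0.14 over all genes tested. With the rescaled FPKM, 11 members were higher and 6 lower 24 h after 20 Gy. A pseudocount of 0.1 added Dnajc16 to the higher members there, and Dnajc2, Dnajc18 and Dnajc24 to the lower ones. The balance of directions after 20 Gy thus depended on the setting. In total, 18 members were called in at least 1 of the 4 comparisons with the control group and 21 in none. Of the 13 called at both doses at 24 h, 7 rose at both and 6 fell at both. Such joint counts over all genes are not given here, so these describe the members alone. Dnajc22 is counted among those that fell at both doses, although it passed the filter on low values only through the controls.

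**Figure D1:**
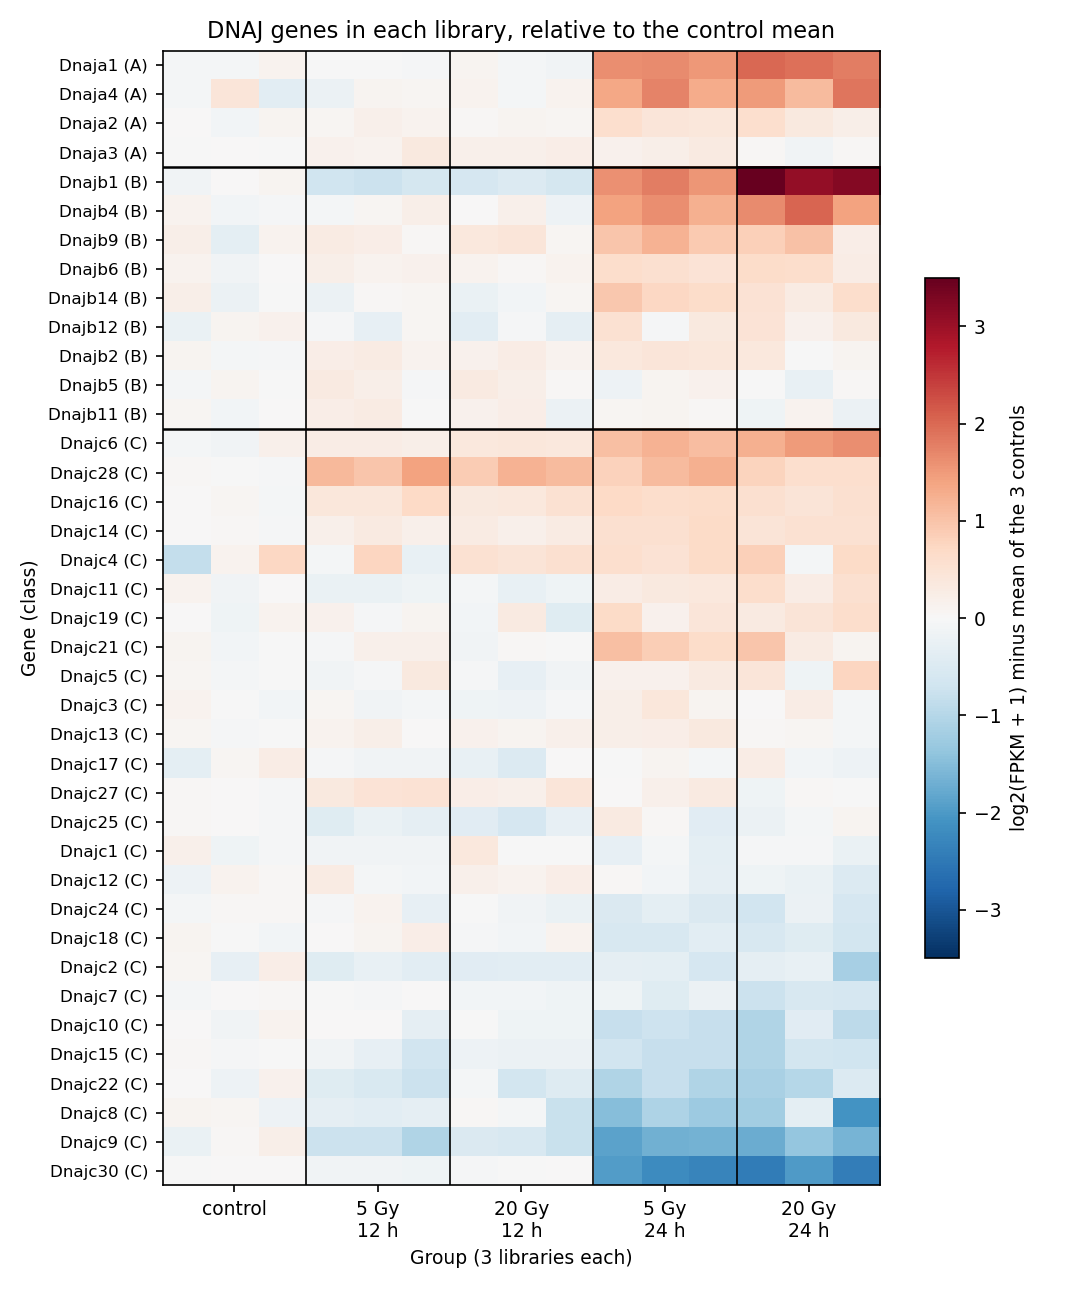
Heat map of the 39 DNAJ genes (rows, class in parentheses, ordered by class and by the change 24 h after 20 Gy) in the 15 libraries (columns, 3 per group). Colour is log2(FPKM + 1) minus the mean of the 3 control libraries: Dnajb1 was the darkest red at 24 h after 20 Gy, Dnajc30 and Dnajc9 were blue in all 6 libraries at 24 h, and Dnajc28 was red in all 12 exposed libraries.

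At 24 h, the members that rose belonged to all 3 classes, and the members that fell belonged to class C. In class A, 2 of 4 members rose at both doses, with a median log2 change of 0.97 after 5 Gy and 0.94 after 20 Gy. In class B, 4 of 9 tested members rose after 5 Gy and 3 after 20 Gy, and the median was 0.55 and 0.47. In class C, 5 of 26 rose (19.2%) and 6 fell (23.1%) after 5 Gy. After 20 Gy, 2 rose (7.69%) and 7 fell (26.9%), and the class C median was -0.01 and -0.05. Among all genes tested, 20.5% rose and 20.8% fell after 5 Gy, and 17.0% and 23.3% after 20 Gy. The share of class C that fell was near that of all genes. Class C also holds most of the members tested, and its falls include Dnajc22. The difference between the classes was not tested.

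**Figure D2:**
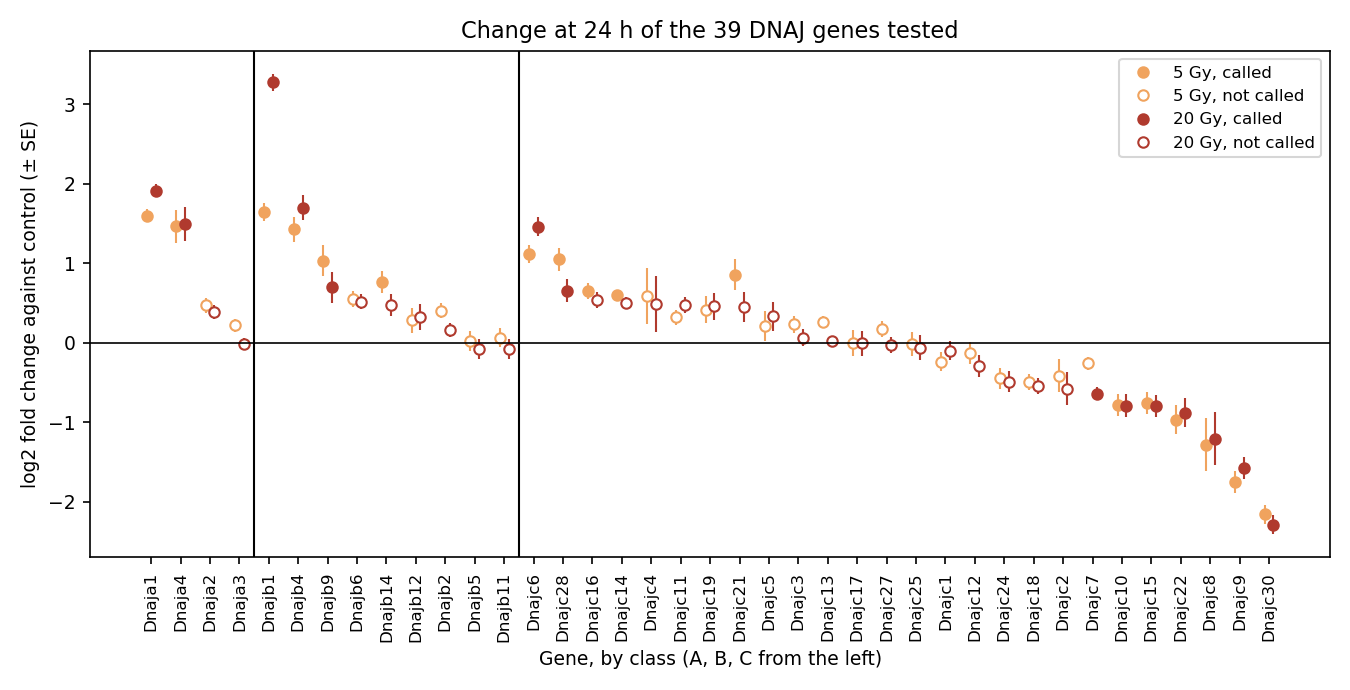
Log2 change against control (vertical axis, points with SE) of the 39 DNAJ genes at 24 h, after 5 Gy (orange) and 20 Gy (red), with classes A, B and C from the left. Filled points were called and open points were not: every called member of classes A and B lies above 0, while class C reaches from Dnajc6 at 1.46 to Dnajc30 at -2.29 after 20 Gy.

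Summed over the family, the level was 763 ± 24.9 FPKM in the control group (SD, n = 3 in each group). It was 733 ± 7.28 and 727 ± 34.7 at 12 h after 5 Gy and 20 Gy, and 1058 ± 31.6 and 1398 ± 95.0 at 24 h. FPKM is divided by transcript length, so these sums and shares compare members per length. Class C supplied 52.5% to 52.9% of the family's FPKM in the control libraries, 29.6% to 31.6% at 24 h after 5 Gy and 20.5% to 25.0% at 24 h after 20 Gy. The class C sum itself averaged 403 FPKM in the control group and 324 and 319 at 24 h, while that of class A went from 182 to 404 and 461 and that of class B from 179 to 330 and 617. Dnajb1 by itself supplied 5.26% to 5.97% in the control libraries, 12.6% to 14.1% at 24 h after 5 Gy and 27.3% to 33.9% at 24 h after 20 Gy. The share of class C lay below and that of Dnajb1 above the range of the controls in all 6 libraries at 24 h. These sums leave out unnamed transcripts of the Dnaja1 and Dnajc8 loci, described further on, and of the Dnajc4 locus. The Dnajc8 one averaged 7.62 FPKM in the control group and 21.8 and 18.8 at 24 h after 5 Gy and 20 Gy. With it, the fall of the class C sum would be smaller. The Dnaja1 one averaged 0.37 FPKM in the control group and 17.6 and 151 at 24 h after 5 Gy and 20 Gy. With the Dnaja1 one added, the class A sum at 24 h would be higher and the Dnajb1 share lower. The lead of class B over class A after 20 Gy would then be smaller.

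Dnajb1, the main heat-inducible HSP40 of the cytosol and nucleus, had the largest change of the family at 24 h after 20 Gy. The gene lies on chromosome 19 from 24747178 to 24750919 in Rnor_6.0, and nearly all of its FPKM came from an annotated transcript with 3 exons. In the controls, it stood at 39.9, 44.3 and 46.5 FPKM. At 12 h, the libraries held 26.3, 25.4 and 27.9 FPKM after 5 Gy and 28.5, 31.1 and 27.9 after 20 Gy. At 24 h, they held 135, 152 and 128 FPKM after 5 Gy and 509, 374 and 415 after 20 Gy. All 6 libraries at 12 h lay below the controls, and all 6 at 24 h lay above them, without overlap between the doses at 24 h. The log2 change against control was -0.69 ± 0.11 (SE) 12 h after 5 Gy (limma adjusted p = 0.00077) and -0.56 ± 0.11 12 h after 20 Gy, which missed the fold limit (adjusted p = 0.0037). It was 1.64 ± 0.11 at 24 h after 5 Gy (adjusted p = 7.5e-08) and 3.27 ± 0.11 after 20 Gy (adjusted p = 2.8e-10), and the mean FPKM after 20 Gy was 9.93 times that of the controls.

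Dnajb1 was also the only member called between the doses. At 12 h, 20 Gy and 5 Gy differed by 0.13 ± 0.11 (SE) on the log2 scale (limma adjusted p = 0.89), and by limma 0 members were called in this comparison and 0 reached an unadjusted p under 0.05, while 0.123% of all genes were called. At 24 h, Dnajb1 was higher after 20 Gy than after 5 Gy by 1.63 ± 0.11 (adjusted p = 8.8e-06), where 2.42% of all genes were called. The rise from 12 h to 24 h was larger after 20 Gy than after 5 Gy by 1.498 ± 0.15 (adjusted p = 0.00088 for the interaction), and 0.553% of all genes were called in this test.

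Dnaja1, the most abundant member in the control group and a general cytosolic partner of HSP70, rose at 24 h at both doses. The gene lies on chromosome 5 from 57028467 to 57039378, and its sum holds 1 annotated transcript of 9 exons. In the 3 control libraries it was at 83.8, 84.3 and 96.3 FPKM, and the 6 libraries at 12 h held 81.2 to 93.6. At 24 h, the libraries held 274, 277 and 255 FPKM after 5 Gy and 354, 340 and 309 after 20 Gy. The 12 h libraries overlapped the controls, and the 24 h libraries lay above them, with the 20 Gy libraries above those of 5 Gy. The log2 change at 24 h was 1.60 ± 0.08 (SE) after 5 Gy (limma adjusted p = 8.3e-09) and 1.91 ± 0.08 after 20 Gy (adjusted p = 1.8e-09). The difference between the doses was 0.31 ± 0.08 (adjusted p = 0.044), under the fold limit.

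A further transcript of the Dnaja1 locus was left out of this sum because the locus also carries the name of a microRNA, Mir207. It has 8 exons and 2663 bases and no name of its own. It was at 0.116 to 0.847 FPKM in the 9 control and 12 h libraries. At 24 h, it reached 17.2, 24.0 and 11.6 FPKM after 5 Gy and 151, 174 and 128 after 20 Gy. The 20 Gy libraries lay at least 5 times above every other library, and the log2 difference between the doses at 24 h was 3.07 ± 0.25 (SE). This transcript passed the filter on low values only through the 24 h groups, where it was high, so its test is not given. With this transcript added to Dnaja1, a setting chosen after the values were seen, the group mean was 286 FPKM after 5 Gy and 485 after 20 Gy. Dnaja1 was then called between the doses at 24 h (0.76 ± 0.09, adjusted p = 0.0004) and in the interaction (0.77 ± 0.12, adjusted p = 0.014).

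Dnaja4, a further cytosolic member of class A on chromosome 8 (59278262 to 59294003), rose at 24 h at both doses. The libraries of unexposed cells held 6.42, 9.33 and 5.05 FPKM, and the 6 libraries at 12 h held 5.69 to 7.47. At 24 h, the libraries held 18.9, 24.7 and 17.9 FPKM after 5 Gy and 20.7, 15.7 and 27.3 after 20 Gy. All 6 libraries at 24 h lay above the controls, and the doses overlapped. Against control, the log2 change was 1.46 ± 0.21 (SE) after 5 Gy (limma adjusted p = 6.5e-05) and 1.49 ± 0.21 after 20 Gy (adjusted p = 5.9e-05).

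The rise of Dnaja4 came from its long unnamed transcripts, while its annotated transcript was not called. Of its FPKM, 88.7% came from 12 unnamed transcripts. The annotated transcript, with 8 exons and 1827 bases in a span of 15742, averaged 0.99 ± 0.86 FPKM in the controls (SD, n = 3), 1.75 ± 0.26 at 24 h after 5 Gy and 0.66 ± 0.59 after 20 Gy. The 7 unnamed transcripts of more than 5000 bases summed to 0.93 ± 0.39 FPKM in the control group, 16.0 ± 2.82 after 5 Gy and 19.1 ± 6.17 after 20 Gy. The most abundant of these has 4 exons that cover 74.7% of its span and went from a mean of 0.01 FPKM to 6.43 and 8.45. The 5 shorter unnamed transcripts went the other way, with 5.02 ± 3.42 FPKM in the controls and 2.72 ± 0.62 and 1.505 ± 0.28 at 24 h. The long forms were thus higher at 24 h and the annotated form showed no such difference. With annotated transcripts alone, the log2 change of Dnaja4 was 0.58 after 5 Gy (adjusted p = 0.37) and -0.21 after 20 Gy (adjusted p = 0.77). In the comparison of 20 Gy with 5 Gy at 24 h, 1 long form was higher by 2.13 and another lower by 1.15 on the log2 scale, and both were called. Such single forms may have passed the filter on low values only through the 24 h groups.

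**Figure D3:**
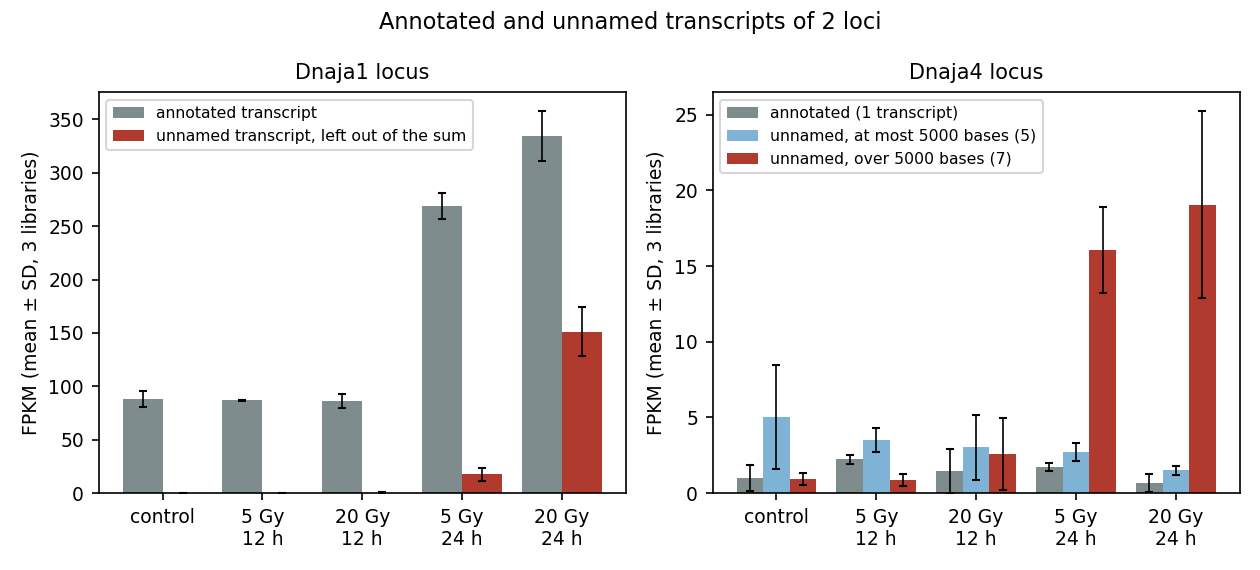
Mean FPKM with SD (vertical axes, from 0) of the transcripts of the Dnaja1 locus (left) and the Dnaja4 locus (right) in the 5 groups, 3 libraries each. Red bars are the unnamed Dnaja1 transcript shared with Mir207, with a mean of 151 FPKM at 24 h after 20 Gy, and the unnamed Dnaja4 transcripts of more than 5000 bases, while the annotated Dnaja4 transcript (grey) stayed under 3 FPKM in every group mean.

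Of the other class A members, Dnaja2, which acts beside Dnaja1 in the cytosol, had a log2 change of 0.47 after 5 Gy and 0.39 after 20 Gy at 24 h (limma adjusted p = 0.00078 and 0.0031), under the fold limit. It passed the limit at both doses with quantile normalization. Dnaja3, the mitochondrial member, had changes of 0.22 and -0.02.

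**Figure D4:**
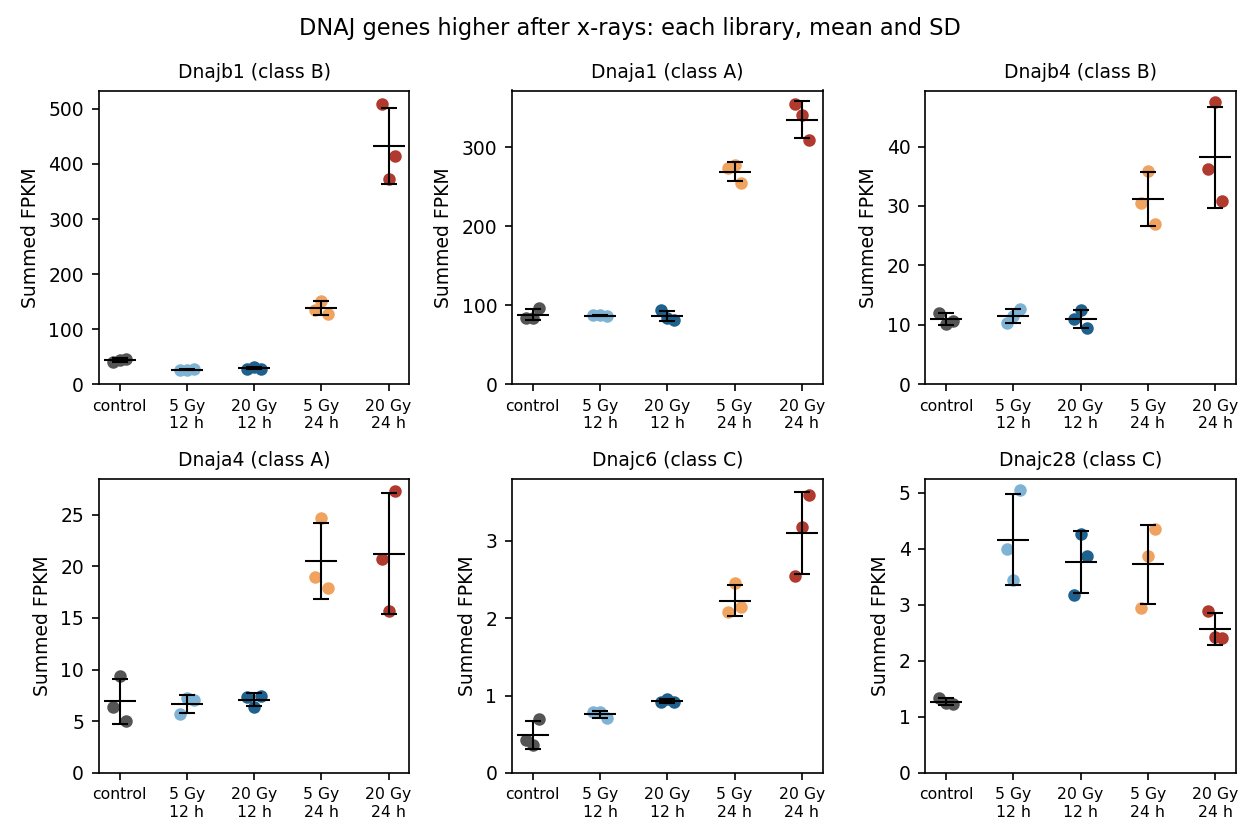
Summed FPKM (vertical axes, from 0) of 6 DNAJ genes with higher levels after exposure, as points for the 15 libraries with the mean and SD of each group of 3. Dnajb1 at 24 h after 20 Gy (374 to 509 FPKM) stands above all other groups, Dnaja1, Dnajb4, Dnaja4 and Dnajc6 were called higher at 24 h, and Dnajc28 is higher in all 4 exposed groups.

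In class B, the cytosolic Dnajb4 followed the same time course. It lies on chromosome 2 from 257394818 to 257425242. Without exposure, the libraries held 12.0, 10.1 and 10.6 FPKM and the 12 h libraries 9.44 to 12.6. At 24 h, they held 30.6, 36.0 and 26.9 after 5 Gy and 36.1, 47.5 and 30.8 after 20 Gy. The 24 h libraries lay above all others, and the doses overlapped. On the log2 scale, the change was 1.42 ± 0.16 (SE) after 5 Gy (limma adjusted p = 5.6e-06) and 1.70 ± 0.16 after 20 Gy (adjusted p = 1.4e-06). Unnamed transcripts supplied 88.4% of its FPKM, and with annotated transcripts alone the change after 20 Gy was 1.10 and not called (adjusted p = 0.12).

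Dnajb9, an ER-luminal co-chaperone of protein degradation that is induced by unfolded proteins, rose at 24 h at both doses. The controls stood at 7.56, 4.89 and 7.13 FPKM, the 5 Gy libraries at 24 h 13.5, 16.1 and 13, and the 20 Gy libraries 12.1, 14.1 and 7.79. The 24 h libraries lay above the controls, although the lowest 20 Gy library was close to the highest control. The log2 change was 1.03 ± 0.20 (SE) after 5 Gy (limma adjusted p = 0.00056) and 0.70 ± 0.20 after 20 Gy (adjusted p = 0.008). The call after 20 Gy was lost without control replicate 2 (0.53) or without replicate 2 of the 20 Gy group at 24 h (0.53).

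Dnajb14, a protein of the ER membrane with its J domain in the cytosol, rose after 5 Gy. In the controls, it stood at 6.76, 4.79 and 5.68 FPKM, and at 24 h the libraries held 11.8, 9.96 and 9.47 after 5 Gy and 8.49, 7.18 and 9.28 after 20 Gy. Both 24 h groups lay above the controls. Against control, the log2 change was 0.77 ± 0.14 (SE) after 5 Gy (limma adjusted p = 0.00034) and 0.47 ± 0.14 after 20 Gy, and the doses did not pass the test against each other (-0.29 ± 0.14, adjusted p = 0.25). The call after 5 Gy was lost with annotated transcripts alone (0.63, adjusted p = 0.10) and with the most abundant transcript alone (0.15).

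The remaining 5 tested members of class B had log2 changes between -0.08 and 0.55 at 24 h and were not called. Dnajb6, which keeps proteins from aggregating, had 0.55 and 0.52 after 5 Gy and 20 Gy (limma adjusted p = 0.00041 and 0.00063), under the fold limit, and was called at both doses with the rescaled FPKM. Dnajb11, the most abundant ER-luminal member of class B, had 0.07 and -0.08. Dnajb2, Dnajb5 and Dnajb12 made up the rest.

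The members were also grouped by where their proteins act, and their counts stand beside 20.5% higher and 20.8% lower among all genes after 5 Gy and 17.0% and 23.3% after 20 Gy. Of 9 members of the cytosol and nucleus, 4 rose after 5 Gy, and 4 rose and 1 fell after 20 Gy, with a median log2 change of 0.55 and 0.52 at 24 h. Of 5 ER-luminal members, Dnajb9 rose and Dnajc10 fell at both doses. Of 5 members of the ER membrane, 3 rose after 5 Gy and 0 were called after 20 Gy by limma, where 4 reached an unadjusted p under 0.05. This contrast turned with the scaling, since Dnajc14 and Dnajc16 were called after 20 Gy with the rescaled FPKM and lost after 5 Gy with quantile normalization. Of 6 mitochondrial members, Dnajc28 rose and Dnajc15 and Dnajc30 fell at both doses, and of 6 members that act on ribosomes, the nucleus or RNA, Dnajc8 and Dnajc9 fell at both doses and Dnajc21 rose after 5 Gy. Of 4 members of vesicles and endosomes, Dnajc6 rose at both doses.

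Dnajc30, a mitochondrial protein of the respiratory chain, had the largest fall on the log2(FPKM + 1) scale at 24 h. It is a gene with a single exon on chromosome 12 (24668398 to 24669464). In the 3 control libraries it was at 18.4, 18.8 and 18.7 FPKM, and the 12 h libraries 16.8 to 18.6. At 24 h, they held 4.08, 3.29 and 2.92 FPKM after 5 Gy and 2.58, 3.97 and 2.66 after 20 Gy. The 24 h libraries lay far below all 9 others, and the doses overlapped. On the log2 scale, the change was -2.16 ± 0.12 (SE) after 5 Gy (limma adjusted p = 2.2e-08) and -2.29 ± 0.12 after 20 Gy (adjusted p = 1.4e-08).

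Dnajc9, a co-chaperone of histones H3 and H4 that is used when DNA is replicated, was lower in all 4 exposed groups. The gene lies on chromosome 15 from 4356261 to 4360564. The libraries of unexposed cells held 29.4, 35.8 and 40.8 FPKM. At 12 h, the libraries held 20.5, 20.5 and 16.4 FPKM after 5 Gy and 24.3, 23.6 and 20.0 after 20 Gy. At 24 h, they held 8.75, 10.2 and 10.4 FPKM after 5 Gy and 9.82, 13.1 and 10.6 after 20 Gy. The 12 h libraries lay between the controls and the 24 h libraries without overlap. At 12 h, the log2 change was -0.85 ± 0.14 (SE) after 5 Gy and -0.61 ± 0.14 after 20 Gy (limma adjusted p = 0.0011 and 0.01). At 24 h, it had reached -1.75 ± 0.14 and -1.58 ± 0.14 (adjusted p = 3.9e-07 and 1e-06). The 12 h call after 20 Gy was lost without control replicate 3 (-0.51), without replicate 3 of that group (-0.53) and under both other scalings (-0.56 and -0.58).

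**Figure D5:**
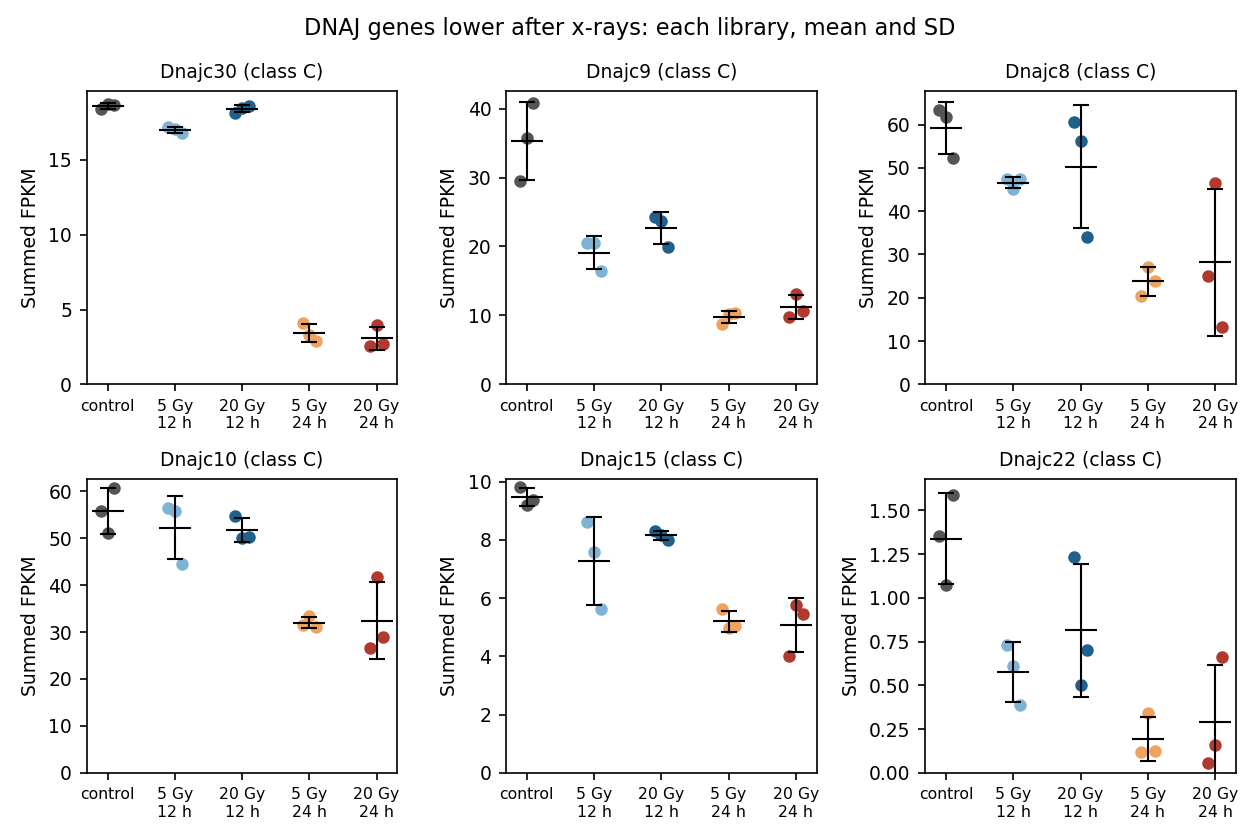
Summed FPKM (vertical axes, from 0) of 6 class C genes with lower levels at 24 h, as points for the 15 libraries with the mean and SD of each group of 3. Dnajc30 falls from 18.4 to 18.8 FPKM in the controls to at most 4.08 at 24 h, Dnajc9 is already lower at 12 h, and the 20 Gy libraries of Dnajc8 at 24 h spread from 13.1 to 46.6 FPKM.

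Dnajc8, a nuclear protein linked to splicing, was called lower at 24 h, but this call depended on how its locus was summed. The gene lies on chromosome 5 from 150725654 to 150743730. Without exposure, the libraries held 63.5, 61.8 and 52.3 FPKM, and at 24 h the libraries held 20.4, 27.1 and 24.0 after 5 Gy and 25.0, 46.6 and 13.1 after 20 Gy. The 24 h libraries lay below the controls, with a wide spread after 20 Gy. The log2 change was -1.28 ± 0.33 (SE) after 5 Gy (limma adjusted p = 0.005) and -1.21 ± 0.33 after 20 Gy (adjusted p = 0.0072). An unnamed transcript with 8 exons, left out because the locus also carries the name Mir3583, held 0.267, 0.535 and 22.1 FPKM in the control libraries and 5.91 to 25.6 in the 24 h libraries. With it added, the changes were -0.54 ± 0.13 and -0.51 ± 0.13, under the fold limit (adjusted p = 0.0027 and 0.0041). The call after 5 Gy was also lost with the most abundant transcript alone.

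Dnajc10, a disulfide reductase of the ER lumen (chromosome 3, 67538289 to 67578306), fell at 24 h. The controls stood at 55.7, 51.0 and 60.8 FPKM, and at 24 h they held 31.4, 33.4 and 31.1 after 5 Gy and 26.5, 41.8 and 28.9 after 20 Gy. All 24 h libraries lay below the controls. Against control, the log2 change was -0.78 ± 0.14 (SE) and -0.79 ± 0.14 (limma adjusted p = 0.00042 and 0.0004).

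Dnajc15, an inner mitochondrial membrane protein (chromosome 15, 59990131 to 60056710), fell by a similar amount. In the controls, it stood at 9.80, 9.20 and 9.38 FPKM, and at 24 h they held 5.62, 4.96 and 5.03 after 5 Gy and 4.00, 5.76 and 5.46 after 20 Gy. The 24 h libraries lay below the controls, and the doses overlapped. On the log2 scale, the change was -0.76 ± 0.14 (SE) after 5 Gy and -0.80 ± 0.14 after 20 Gy (limma adjusted p = 0.00039 and 0.00027).

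Dnajc22 was lower at 24 h at both doses, at a low level. In the 3 control libraries it was at 1.35, 1.07 and 1.59 FPKM, and at 24 h they held 0.120, 0.340 and 0.125 after 5 Gy and 0.0548, 0.157 and 0.659 after 20 Gy. The 24 h libraries lay below the controls. The log2 change was -0.97 ± 0.19 (SE) and -0.88 ± 0.19. Without the control group its mean was 0.469 FPKM, so it passed the filter on low values only through the group where it was high, and its test is not given. As a ratio of group means, the controls were 6.86 times the 5 Gy group at 24 h, which is more than for Dnajc30 (5.43). Dnajc7, a cytosolic protein that links HSP70 with HSP90, fell after 20 Gy (-0.64 ± 0.08, adjusted p = 1.8e-05) and had a log2 change of -0.26 after 5 Gy. Its call was lost without replicate 1 of the 20 Gy group at 24 h, with the most abundant transcript and under both other scalings, and the doses differed by -0.38 (adjusted p = 0.017), under the fold limit.

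Dnajc6, or auxilin, which uncoats clathrin vesicles, had the largest rise of class C. It lies on chromosome 5 from 120340646 to 120492487. The libraries of unexposed cells held 0.428, 0.353 and 0.690 FPKM and the 12 h libraries 0.704 to 0.959. At 24 h, they held 2.08, 2.46 and 2.14 after 5 Gy and 2.54, 3.18 and 3.59 after 20 Gy. The 24 h libraries lay above the 12 h libraries, and these above the controls. The log2 change at 24 h was 1.12 ± 0.11 (SE) after 5 Gy (limma adjusted p = 3.3e-06) and 1.46 ± 0.11 after 20 Gy (adjusted p = 3.6e-07). The call after 5 Gy was lost with annotated transcripts alone (0.46, adjusted p = 0.32) and with the most abundant transcript alone. At 12 h after 20 Gy, its mean was 1.90 times that of the controls, and it was called there with a pseudocount of 0.1 and with the rescaled FPKM.

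Dnajc28, a member assigned to mitochondria, was called higher at both times and both doses. It lies on chromosome 11 from 31770165 to 31772984. Without exposure, the libraries held 1.34, 1.24 and 1.22 FPKM. At 12 h, they held 4.00, 3.44 and 5.05 FPKM after 5 Gy and 3.18, 4.27 and 3.87 after 20 Gy. At 24 h, they held 2.95, 3.87 and 4.35 after 5 Gy and 2.90, 2.42 and 2.40 after 20 Gy. All 12 exposed libraries lay above the controls. Against control, the log2 change was 1.18 ± 0.14 (SE) and 1.07 ± 0.14 at 12 h after 5 Gy and 20 Gy (limma adjusted p = 0.00013 and 0.00032). For 24 h it was 1.05 ± 0.14 and 0.65 ± 0.14 (adjusted p = 3.6e-05 and 0.0016).

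Dnajc21, which helps to mature the large ribosomal subunit, rose at 24 h after 5 Gy. The controls stood at 2.08, 1.68 and 1.85 FPKM, the 5 Gy libraries at 24 h 4.97, 4.26 and 3.45 and the 20 Gy libraries 4.63, 2.47 and 2.05. The 5 Gy libraries lay above the controls, and the 20 Gy libraries overlapped them. On the log2 scale, the change was 0.86 ± 0.19 (SE) after 5 Gy (limma adjusted p = 0.0019) and 0.45 ± 0.19 after 20 Gy (adjusted p = 0.061), and the doses were not called against each other (adjusted p = 0.26). The call was lost with annotated transcripts alone (0.59, adjusted p = 0.081) and with the most abundant transcript alone. The ER-membrane members Dnajc14 and Dnajc16 rose after 5 Gy by 0.59 and 0.65 on the log2 scale (adjusted p = 1.2e-05 and 8.6e-05) and had 0.50 and 0.53 after 20 Gy. Both calls after 5 Gy were lost with quantile normalization, and that of Dnajc14 also without control replicate 3 or without replicate 3 of the 5 Gy group at 24 h, with annotated transcripts alone and with the most abundant transcript.

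The other 14 class C members tested were not called in any comparison with the control group, with log2 changes at 24 h between -0.58 (Dnajc2) and 0.59 (Dnajc4). Among them, Dnajc3, an ER-luminal co-chaperone induced by unfolded proteins whose promoter stretch is printed above, had 0.23 and 0.06. The endosomal Dnajc13 had 0.26 and 0.02, and the vesicle protein Dnajc5 had 0.21 and 0.33.

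Between 12 h and 24 h after 5 Gy, 8 of 39 members rose and 5 fell, while 17.1% of all genes rose and 19.3% fell. After 20 Gy, 6 rose and 5 fell, while 14.1% of all genes rose and 22.1% fell. With quantile normalization, 8 rose and 4 fell after 20 Gy, and with the rescaled FPKM or a pseudocount of 0.1, 9 rose and 7 fell. Dnaja1, Dnaja4, Dnajb1, Dnajb4 and Dnajc6 rose and Dnajc8, Dnajc9, Dnajc10 and Dnajc30 fell between the times at both doses. With the transcript shared with Mir3583 added, the log2 change of Dnajc8 was -0.21 and -0.22 and not called (limma adjusted p = 0.18 and 0.16). With annotated transcripts alone, Dnaja4 and Dnajb4 lost both calls and Dnajc6 lost that after 5 Gy. Dnajb1 rose by 2.34 ± 0.11 (SE) on the log2 scale after 5 Gy and by 3.83 ± 0.11 after 20 Gy (limma adjusted p = 6.1e-09 and 9.6e-11). Dnajc28 did not rise further, with -0.13 and -0.41. Dnajc11, a mitochondrial membrane protein, rose between the times after 20 Gy (0.63 ± 0.10, adjusted p = 0.00017), and Dnajc18 fell after 5 Gy (-0.62 ± 0.10, adjusted p = 0.00018). The calls between the times rested on single libraries for some members. The call of Dnajc8 was lost when any of 5 libraries (5 Gy) or 4 libraries (20 Gy) was left out, that of Dnajc18 for any of 3 libraries, and those of Dnajc10, Dnajc11 and Dnajc15 after 20 Gy without replicate 1 of the 20 Gy group at 24 h. The call of Dnajc11 was also lost without replicate 2 of the 20 Gy group at 12 h, with annotated transcripts alone and with the most abundant transcript. Dnajc18 also lost its call with the rescaled FPKM and with annotated transcripts alone, and Dnajc15 lost that after 20 Gy with quantile normalization. With the most abundant transcript, Dnajb14, Dnajc6, Dnajc8 and Dnajc21 lost theirs after 5 Gy, and Dnajc8 also after 20 Gy. Annotated transcripts alone cost Dnajc21 its call after 5 Gy and Dnajc8 its call after 20 Gy. A fit of the compared groups only also cost Dnajc8 that after 20 Gy.

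Single transcripts were tested in the same way, 104 of them from 39 members with a mean of at least 0.5 FPKM. This mean was taken over all 15 libraries, so a transcript high only at 24 h could pass. How many did so was not counted. At 24 h after 5 Gy, 25 rose and 7 fell, while 12.1% of all 41932 transcripts tested rose and 12.0% fell. After 20 Gy, 22 rose and 8 fell, while 10.6% of all transcripts rose and 13.6% fell. Besides Dnaja4, described above, 2 genes had transcripts called in opposite directions in the same comparison. Of Dnajc19, a part of the mitochondrial import motor, the most abundant transcript (unnamed, 6 exons, 972 bases) fell from a mean of 26.5 FPKM in the control group to 11.5 at 24 h after 20 Gy. Its annotated transcript, with 1.59 to 8.41 FPKM in the 3 libraries at 24 h after 20 Gy, rose from a mean of 0.78 to 4.20 FPKM, and 3 unnamed ones rose too, and the sum of the gene had a log2 change of 0.46. Of Dnajc17, which acts in splicing, an unnamed transcript of 2 exons fell at 24 h after 5 Gy by 1.00 on the log2 scale while 4 unnamed transcripts of 11 exons rose by 0.96 to 1.47, and the sum of the gene was not called.

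The partners of the DNAJ proteins were taken from a list of HSP70 genes. Of 12 tested, 4 rose and 1 fell at 24 h after 5 Gy, and 6 rose and 2 fell after 20 Gy, compared with 20.5% higher and 20.8% lower, and 17.0% and 23.3%, among all genes. The inducible Hspa1b averaged 10.4 FPKM in the control group, 10.0 and 14.2 at 12 h after 5 Gy and 20 Gy, and 1354 and 4957 at 24 h. Its log2 change at 24 h was 6.87 after 5 Gy and 8.76 after 20 Gy. Hspa1a, a near-identical copy of Hspa1b, was not named among the deposited genes. Which of the copies the reads of Hspa1b came from is therefore uncertain. Hsph1, which encodes HSP110, went from 11.9 FPKM in the control group to 369 and 936 at 24 h. Both were higher after 20 Gy than after 5 Gy by 1.89 and 1.34 on the log2 scale, and both differences were called. The ER member Hspa5 was not called (0.17 and -0.16), and the mitochondrial Hspa9 rose at both doses (0.95 and 0.91).

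The constitutive Hspa8 was listed at 0 in all 15 libraries on its annotated transcript. An unnamed transcript in its locus, which shares the locus with a small RNA and was left out of the gene sums, averaged 393 ± 23.6 FPKM in the controls (SD, n = 3), 1047 ± 110 at 24 h after 5 Gy and 1808 ± 172 after 20 Gy. Among 13 nucleotide exchange factors and other co-chaperones of HSP70, 5 rose and 1 fell after 5 Gy, and 4 rose and 1 fell after 20 Gy. Of all genes, 20.5% rose and 20.8% fell after 5 Gy, and 17.0% and 23.3% after 20 Gy. Bag3 rose the most, from 27.0 FPKM to 109 and 353, and Grpel1, the mitochondrial exchange factor, fell by 0.76 and 0.80 on the log2 scale. Of 3 heat shock factors, Hsf2 rose (0.77 and 0.64), and Hsf1 had 0.08 and -0.05.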

How the data were processed

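RNA of 15 libraries of rat BMECs was enriched for poly-A, and libraries were sequenced in paired reads on an Illumina instrument by the authors. Per the labels and the study's methods, the authors aligned the reads to Rnor_6.0 with HISAT2 2.0.13 and assembled and quantified transcripts with StringTie. The submitters' processing notes also name Trimmomatic, FastQC, kallisto and edgeR. The deposited table gives FPKM for 85322 transcripts in each library, named or assembled without a name. It holds no counts, so no count model was fitted.

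FPKM was summed per gene and library. Unnamed transcripts of a locus with several gene names (4738 transcripts, among them those of Dnaja1 with Mir207, Dnajc8 with Mir3583 and Dnajc4 with Vegfb) were left out of the sums. The sums were tested as log2(FPKM + 1) with limma 3.58.1 in R 4.3.3, with a mean for each of 5 groups, a trended variance prior and 10 residual degrees of freedom, and p-values were adjusted over all 17895 genes. The fit was tested on simulated data. Aligned bases per library were computed from the spacing of the low FPKM values of short transcripts, and their number limits the precision of low FPKM values.

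Values in every library were given for members called at 24 h whose exposed libraries did not overlap the controls (up to 3 of class A, 6 of class B and 9 of class C, by size of change), for the most abundant member of each class, and for members called at 12 h, between doses or in the interaction. Dnajc7, Dnajc14, Dnajc16 and Dnajc18 were named outside the order of size. Alternatives were other pseudocounts, filters, scalings, fold limits, transcript sets and fits, a replicate block, and leaving out each library. The members, lists and tests were chosen with earlier results of these data known.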

Additional observations from a re-analysis of the deposited data

Results flagged for a closer look

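The rise of Dnajb1 from 12 h to 24 h was larger after 20 Gy than after 5 Gy, and this drew a closer look because the effect of time differed between the doses. The difference was 1.498 ± 0.15 (SE) on the log2 scale (limma adjusted p = 0.00088 over all genes tested), and all 3 libraries at 24 h after 20 Gy lay above all 3 after 5 Gy.

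The unnamed transcript at the Dnaja1 locus, which the sums of the report do not hold, reached a mean of 151 ± 23.1 FPKM (SD, n = 3) at 24 h after 20 Gy, compared with 0.37 ± 0.22 in the control group, and was taken up because it is a signal outside the main measurement. Its log2 change against control was 6.80 after 20 Gy and 3.72 after 5 Gy, and the interaction of dose and time was 3.11. It passed the filter on low values only through the 24 h groups, where it was high, so its tests are not given. With 3 libraries a group, single libraries were not tested for standing apart from their group.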

How the results depend on the processing

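For the 15 members given by library, the 35 called values against control, between doses and in the interaction kept their direction and their call in 910 of 941 recomputations, and 30 lost the call. In 15 of the settings a single library was left out. Most of these libraries lie outside the groups that a call compares, so keeping the call there was largely built in. The 35 values include those of Dnajc22, whose test is not given. A filter of 1 FPKM removed Dnajc22, and this was not counted as a lost call. Calls between the times and those of Dnajc7, Dnajc14 and Dnajc16 are not in this count. Several of them were lost under single alternatives, given beside them except for those lost to the fold limit of 2. The exception in direction was Dnaja4 at 24 h after 20 Gy, whose log2 change was -0.21 with annotated transcripts alone. With a fold limit of 2, the count of called members was 1 in both 12 h comparisons, 10 and 8 at 24 h after 5 Gy and 20 Gy (17 and 14 with the limit of 1.5), and 5 and 6 between the times. By construction, this limit calls fewer genes. Quantile normalization left 1 call at 12 h after 20 Gy in place of 2. Between the doses at 24 h, 2 members were called in place of 1 with the most abundant transcript of each gene (Dnajc14 added) and with the transcripts shared with a microRNA added (Dnaja1 added), and the latter setting, chosen after seeing the data, also gave 2 in the interaction. For these, the cause was not tested. Leaving out single libraries gave 3 to 3 calls at 12 h after 5 Gy, 1 to 3 at 12 h after 20 Gy, 16 to 18 and 14 to 16 at 24 h, 11 to 13 and 8 to 15 between the times after 5 Gy and 20 Gy, 0 to 0 between the doses at 12 h, 1 to 2 at 24 h and 1 to 1 in the interaction. The count of 1 at 12 h after 20 Gy arose without control replicate 3 or without replicate 3 of that group (Dnajc9 lost), and the count of 2 between the doses without replicate 1 of 20 Gy at 24 h (Dnajc21 added). The counts of called transcripts at 24 h ranged from 27 to 35 (5 Gy) and from 26 to 34 (20 Gy).

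Whether the replicate numbers pair the libraries could not be told from the correlations between libraries. Deviations from the group means of libraries with the same number had correlations of -0.18 to 0.23 (4 of 30 over 0.1). For libraries with different numbers they were -0.21 to 0.20 (9 of 60 over 0.1). Of 15 libraries, 9 correlated best with their own number, a hint from the data and not from the design. With a replicate block, the counts of called members were 3 and 2 at 12 h, 17 and 14 at 24 h, 13 and 11 between the times, 0 and 1 between the doses and 1 in the interaction, and for transcripts 32 at 24 h after both doses.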
